A study of Homo sapiens with 12 samples.

Results

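The regions described here are intervals of the human genome at which at least 3 of 4 HOXA13 peak lists placed a peak. Peaks of the 4 lists on chromosomes 1 to 22, X and Y were pooled, and peaks that overlapped by 1 bp or more were merged. This gave 140874 merged regions, of which 223 (0.158%) held peaks of 3 or 4 lists. Of these 223 members, 219 were held by 3 lists and 4 by all 4 lists, while 4508 regions had peaks of 2 lists and 136143 of 1 list. The members were thus chosen by the authors' deposited peak calls, which rest on the p of ChIP over input. The fold, p, q and input of the same peaks are therefore given as a description and carry no test.

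The lists came from HepG2 and Huh7, established human lines from liver cancer. Chromatin of untagged cells of each line was precipitated with an antibody to HOXA13, and chromatin of stably transfected cells carrying HA-tagged HOXA13 with an antibody to the HA epitope. Each list compares 1 ChIP library with the input, sonicated chromatin without precipitation, of the same cells. The lists are named by line and target: HepG2/HOXA13, HepG2/HA, Huh7/HOXA13 and Huh7/HA. IgG libraries (4 in number) were not used here. The sources used here do not give the promoter of the tagged construct or whether a tagged line is 1 clone. With 1 library per condition there was no replicate check, and no difference between lists was tested.

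HOXA13 is a homeodomain transcription factor of the HOXA cluster, known for its part in the development of the limbs and the hindgut. Satellite arrays at centromeres, ribosomal gene arrays and nuclear copies of mitochondrial DNA exist in many copies per cell, and a reference assembly holds only some of them. Reads from the missing copies align to the few that are present, so such places collect reads in input as well as in ChIP. An input level far above the genome background is commonly read as a mark of such sequence, and it is the measure used here; gains of a chromosome segment in a cancer line also raise it. No sequence or annotation of the build was used, so statements on what a region holds are background and are named as such.

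Most members lay on sequence with raised input. Input is given as the expected pileup behind the highest-fold summit, in multiples of the genome background of that list, and over 3 times the background was called raised. Many members are neighbours in a block and are not independent, so the exact intervals given for shares of members are too narrow. In 163 of the 223 members (73.1%, exact 95% interval 66.8 to 78.8%) input was raised in every list that held the region, where 5.81% of all merged regions met this. Input was raised in some of the lists in 26 members and in none in 34 members (15.2%, 10.8 to 20.6%), where 93.5% of all merged regions had it in none. The share with raised input in every list was 5.18% for regions of 1 list, 21.8% for 2 lists, 72.6% for 3 lists and 100% for the 4 regions in all lists. Input enters the p on which peaks were called, so these shares belong to the contrast that chose the members.

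**Figure D1:**
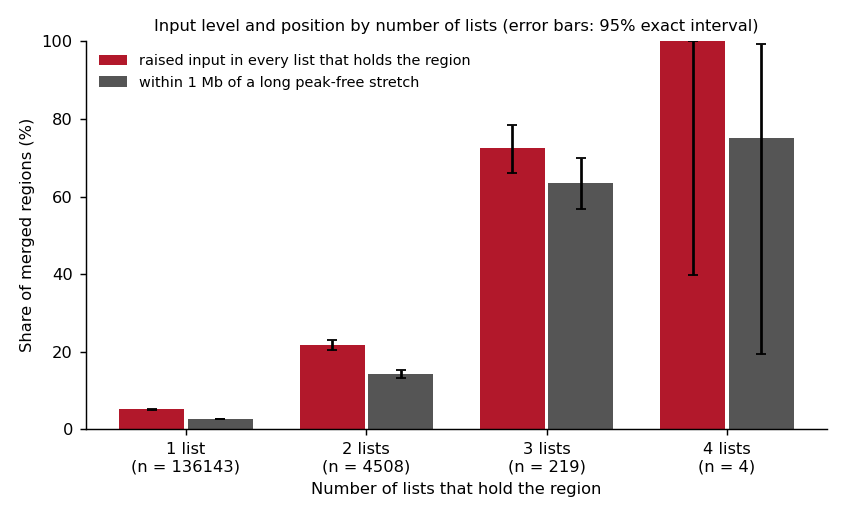
Share of merged regions (percent, y axis) with raised input in every list that holds them (red) and within 1 Mb of a long peak-free stretch (grey), by the number of lists that hold the region (x axis), with exact 95% intervals. Both shares are higher at each further list, from 5.18% and 2.68% with 1 list to 72.6% and 63.5% with 3 lists, and the 4 regions of 4 lists have wide intervals.

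In each list the share among members was above that of the list. Among members held by HepG2/HOXA13, 166 of 197 (84.3%) had raised input, where 1.82% of that list's peaks had. The counts were 182 of 218 (83.5%, list 17.3%) in HepG2/HA and 144 of 186 (77.4%, list 8.13%) in Huh7/HA. Huh7/HOXA13, the shortest list, held 72 members, of which 39 (54.2%, list 8.83%) had raised input. Input over 20 times the background was found in 101 HepG2/HOXA13 members (51.3%, list 0.324%), 93 HepG2/HA members (42.7%, list 0.603%), 5 Huh7/HOXA13 members (6.94%, list 0.115%) and 102 Huh7/HA members (54.8%, list 0.573%).

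The members lay close to the long stretches that no list covered. A stretch of at least 2.9 Mb without a peak in any list was taken as a stand-in for an assembly gap at a centromere or in heterochromatin. There were 29 such stretches, and 142 members (63.7%, 57.0 to 70.0%) lay within 1 Mb of one, where 3.15% of all merged regions did. Counted by block, with members within 1 Mb of each other joined, 23 of 91 blocks or single members were near a stretch, so a few large blocks carry much of the share. Within 100 kb lay 124 members. Of the 29 stretches, 19 had a member within 1 Mb. Not every stretch need be an assembly gap. Chromosome X held only 0.856% of merged regions. Apart from the stretch at its centromere, it had chrX:90932572-94884825, chrX:110924513-114794666 and chrX:136012081-139755341. The position of a region was not used to choose the members, but a region at the very edge of a stretch defines that edge. Among the 163 members with raised input in every list 127 were near a stretch, among the 26 with raised input in some lists 9 were, and among the 34 without raised input 6 were.

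A few chromosomes carried much of the set, although every one of the 24 chromosomes had a member. Chromosome 8 held 31 members (4.03% of all merged regions lay on it), chromosome X 29 (0.856%), chromosome 16 27 (5.49%) and chromosome Y 17 (0.341%). Together these held 104 members (46.6%), where 10.7% of merged regions lay on them. On chromosomes 8, X, 16 and Y, input was raised in every list in 31, 28, 25 and 16 members. Chromosome 19 differed in its input levels: 1 of its 9 members had raised input in every list.

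The members gathered in short blocks. Another member lay within 1 Mb of 155 members (69.5%), while 8.61% of all merged regions had a member that near. Chaining neighbours within 1 Mb gave 91 groups, of which 23 had 2 or more members. Neighbours in a block share their sequence environment and are not independent sites.

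The largest block, chr16:46385830-46435559 (build GRCh37, as for every position given here), held 22 members in 49730 bp at the edge of the stretch beside the chromosome 16 centromere. Input was raised in every list at all 22 of them. Its median input was 59.1 times the background in HepG2/HOXA13, 54.0 in HepG2/HA and 52.9 in Huh7/HA, and the fold over input had medians of 1.97, 1.86 and 1.47. Huh7/HOXA13 held 1 of these members, at 1.36-fold. The highest input of all members in both HepG2 lists, 62.6 and 55.6 times the background, was in this block. Both values stand at the input ceiling of their list, described further on, so higher levels could not be seen. The next widest members after the chromosome 21 region described further on were of this block, with 3636 bp at chr16:46391850-46395485, 2921 bp at chr16:46399373-46402293 and 2818 bp at chr16:46387728-46390545. The fifth in width, with 2611 bp, was chr7:56438152-56440762, with folds of 3.96, 2.12 and 1.53 in HepG2/HOXA13, HepG2/HA and Huh7/HA at 8.05, 10.1 and 28.0 times the background.

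Blocks on chromosomes X and 8 flanked the stretches at their centromeres, places known for alpha satellite arrays. On chromosome X, chrX:61683032-61719880 held 21 members, with input medians of 22.5 and 21.6 times the background in the HepG2 lists and 39.0 in Huh7/HA. On the other side of that stretch, chrX:58564351-58581956 held 7 members. On chromosome 8, chr8:43793803-43838762 held 15 members and chr8:46838983-46856329 held 14. Their input medians were 32.5 and 36.8 in HepG2/HOXA13, 27.4 and 33.6 in HepG2/HA, and 34.8 and 39.3 in Huh7/HA. None of the 29 chromosome 8 block members was held by Huh7/HOXA13.

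The block on chromosome Y differed between the cell lines in its input. It held 16 members at chrY:58821988-58980937, beside the heterochromatin of the long arm, which is known for large satellite arrays. Median input there was 24.6 times the background in HepG2/HOXA13 and 24.8 in HepG2/HA, but 5.77 in Huh7/HOXA13 and 6.25 in Huh7/HA. Of the 16 members, 7 were held by Huh7/HOXA13 and 9 by Huh7/HA. With 1 input per cell population, copy number in the line and the preparation of the library cannot be told apart. Blocks on chromosomes X, 17 and 7 went the other way. The 9 members at chr17:22245537-22261674 had input medians of 16.7 and 16.9 in the HepG2 lists and 27.7 in Huh7/HA. The 3 members at chr7:61968627-61970546 had 28.6 and 25.7 in the HepG2 lists and 61.6 in Huh7/HA. Each median covers only the members that the list held. Multiples of the background are also capped at a different value in each list, as described further on.

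Some blocks with high input lay far from any long stretch. The 6 members at chr1:564468-569514 stood 120915898 bp or more from the nearest one, and input was raised in every list at all of them, with medians of 50.3, 43.9 and 52.6 in HepG2/HOXA13, HepG2/HA and Huh7/HA. As background, this end of the chromosome 1 reference is known for a nuclear copy of mitochondrial DNA. The mitochondrial sequence itself, which lies outside the rule, formed 1 region with peaks of the same 3 lists and none of Huh7/HOXA13. Its input was 61.8, 55.4 and 67.2 times the background, and its folds were 1.92, 1.86 and 1.30. The folds of the 6 chromosome 1 members ran from 1.80 to 2.57 in HepG2/HOXA13, from 1.81 to 2.27 in HepG2/HA and from 1.33 to 1.95 in Huh7/HA.

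A pair of members on the long arm of chromosome 1 lay in the part of the assembly that is known for the 5S ribosomal RNA gene array. The member chr1:228754825-228755325 had input of 10.3, 10.8 and 10.3 times the background in HepG2/HA, Huh7/HOXA13 and Huh7/HA, with folds of 3.79 (95% Poisson interval 3.10 to 4.58), 1.74 (1.34 to 2.23) and 2.59 (2.03 to 3.26). Its neighbour chr1:228768181-228768703 had folds of 2.62 (2.14 to 3.18), 1.96 (1.5 to 2.51) and 2.31 (1.78 to 2.94). These intervals cover the counting of ChIP reads only, not input and not differences between preparations. HepG2/HOXA13 held no peak at either member, and at the first the HepG2/HA interval lay above that of Huh7/HOXA13.

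Input levels of the members ranked alike in the HepG2 libraries and, less closely, within Huh7 and between the lines. This held less among members without raised input. Over the 192 members in both HepG2 lists, the input of the untagged and the tagged cells had a Spearman correlation of 0.986, with a median ratio of 1.08. For Huh7/HOXA13 against Huh7/HA it was 0.882 over 35 members. Between cell lines, it was 0.876 over 160 members for HepG2/HOXA13 against Huh7/HA and 0.9 over 181 for the anti-HA lists. Against Huh7/HOXA13 it was 0.778 over 46 members of HepG2/HOXA13 and 0.773 over 67 of HepG2/HA. Among the members with raised input in every list these last 2 values were 0.262 (n = 27) and 0.381 (n = 35), with median input ratios of 1.54 and 1.37. Fold was lower where input was higher, with a Spearman correlation between them of -0.556 in HepG2/HOXA13, -0.641 in HepG2/HA, -0.804 in Huh7/HOXA13 and -0.818 in Huh7/HA. These are descriptions over members that share libraries and neighbourhoods, and input is the denominator of fold.

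The ChIP pileup of many of these members stood close to an upper limit. The highest ChIP pileup of a list was 206 reads in HepG2/HOXA13, 270 in HepG2/HA and 228 in Huh7/HA, which is 2 times the length of the shortest peak in that list (103, 135 and 114 bp). This is the ceiling that keeping 1 read per position and strand gives when reads are extended to the shortest peak length. The setting the authors used is not stated in the sources at hand. In Huh7/HOXA13 the same rule gives 246, and the highest pileup was 194. The expected pileup from input ended at the corresponding scaled ceiling, at 108.1, 145.6 and 177.0 in the first, second and last of these lists. Input given as multiples of the background is therefore capped, at a different value in each list.

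Where ChIP and input both stand at their ceilings, the formula of the fold gives a fixed value. That value was 1.90 in HepG2/HOXA13, 1.85 in HepG2/HA and 1.29 in Huh7/HA. For Huh7/HOXA13 the formula gives 0.813. A peak needs more ChIP than expected, so that list could hold no peak where both stand at their ceilings. In HepG2/HOXA13, 24 of the 155 held members with raised input in every list had both pileups at 80% or more of the ceiling, with folds of 1.80 to 2.19 and a median of 1.93. In HepG2/HA 25 of 163 did, with folds of 1.75 to 1.94 and a median of 1.86. In Huh7/HA 19 of 140 did, with folds of 1.30 to 1.55 and a median of 1.39. Chromosome 16 held 16, 16 and 9 of these members. A ChIP pileup of 50% of the ceiling or more was reached by 88 members of HepG2/HOXA13 (list 0.228%), 76 of HepG2/HA (list 0.588%), 92 of Huh7/HA (list 0.496%) and 4 of Huh7/HOXA13 (list 0.0864%). The mitochondrial region stood at the ceiling itself, with 206, 270 and 228 reads.

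Strong peaks were frequent among members, most of them in the 2 HepG2 lists. A peak is called strong here at −log10 q of 5 or more. A strong peak in at least 2 lists was found in 107 members (48.0%), where 0.234% of all merged regions had one. A region of 1 list cannot have 2 strong lists, so the rule fixes much of this contrast, and among the 4731 regions of 2 or more lists the share was 6.95%. In 106 of the 107 both HepG2 lists were strong. By number of strong lists, 55 members had 0, 61 had 1, 81 had 2 and 26 had 3, and no member was strong in all 4. Raised input in every list was found in 103 of the 107. Strong peaks made up 0.753% of the HepG2/HOXA13 list, 21.6% of HepG2/HA, 2.55% of Huh7/HOXA13 and 0.399% of Huh7/HA, and the members held by these lists were strong in 125 of 197, 143 of 218, 6 of 72 and 27 of 186. The members hold 131 of the 542 strong peaks of HepG2/HOXA13 (24.2%) and 29 of the 115 of Huh7/HA (25.2%), but 150 of the 7537 of HepG2/HA (1.99%) and 6 of the 266 of Huh7/HOXA13 (2.26%).

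The 163 members with raised input in every list had low folds, whether strong or not. A strong peak was present in 2 or more lists in 103 of them, in 1 list in 34 and in no list in 26, and by list in 118 of 155 in HepG2/HOXA13, 120 of 163 in HepG2/HA, 1 of 35 in Huh7/HOXA13 and 26 of 140 in Huh7/HA. Their median folds were 2.34 in HepG2/HOXA13 (n = 155 members), 1.98 in HepG2/HA (n = 163), 1.83 in Huh7/HOXA13 (n = 35) and 1.64 in Huh7/HA (n = 140). The medians of all peaks on these chromosomes were 2.84, 2.83, 2.69 and 2.57 in the same order. In 143 of the 163 the highest fold in any list was under 3, and in 2 it was 5 or more. One of these, chr16:33866033-33866686, reached 5.76 (4.12 to 7.85) in HepG2/HOXA13 at 3.34 times the background. The other, chr14:31698816-31699236, reached 5.14 (4.08 to 6.39) in HepG2/HA, where its input was 5.56 times the background, against 19.7 and 19.6 in the Huh7 lists. These 2 were named after their values were seen.

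The 4 regions held by every list belonged to the group with raised input throughout. The member chr17:22245537-22245993 had folds of 2.65 (2.10 to 3.29), 1.97 (1.58 to 2.44), 1.30 (1.09 to 1.53) and 1.64 (1.36 to 1.97) in HepG2/HOXA13, HepG2/HA, Huh7/HOXA13 and Huh7/HA. Its input was 16.7, 16.1, 33.6 and 26.5 times the background. On the 2 sides of the chromosome X stretch, chrX:58581766-58581956 had folds of 2.11, 1.97, 1.34 and 1.70, and chrX:61686509-61686813 had 2.58, 2.11, 1.25 and 1.75. All 3 regions lay within 15682 bp of a long stretch, and −log10 q was 0 at each of them in Huh7/HOXA13. The fourth, chr3:156892591-156893002, lay 63381195 bp from a stretch, with input of 5.17, 7.82, 6.15 and 6.25 times the background. Its folds were 2.02 (1.25 to 3.09), 2.05 (1.5 to 2.74), 2.49 (1.87 to 3.26) and 1.68 (1.13 to 2.40), and their intervals overlap.

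The lists combined unevenly. HepG2/HOXA13, HepG2/HA and Huh7/HA together held 151 members, of which 128 had raised input in every list and 119 lay near a long stretch. Both HepG2 lists with Huh7/HOXA13 held 37, with 23 raised in every list and 19 near. HepG2/HA with both Huh7 lists held 26, of which 8 were raised in every list and 1 lay near a stretch. HepG2/HOXA13 with both Huh7 lists held 5, none of them raised in any list or near a stretch. Huh7/HOXA13, whose list holds 10414 peaks against 28809 to 71999 in the others, was missing from 151 members, and its nearest peak lay within 10 kb in 43 of those. Where ChIP and input both stand at their ceilings, the fold of that list is 0.813, so no peak could be called there. Over the 151 members, list length, this limit and a lack of ChIP signal cannot be told apart here.

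Summits of different lists lay near each other in most members with raised input in every list, and less often in the other members. The rule joins only peaks that overlap, directly or through a neighbour, so it fixes much of this closeness. The median peak width was 130 bp in HepG2/HOXA13, 196 bp in HepG2/HA, 158 bp in Huh7/HOXA13 and 148 bp in Huh7/HA. No span of regions outside the members is given, so the spans are a description only. The span between the highest-fold summits of the lists had a median of 48 bp over the 223 members, 35 bp with raised input in every list, 115.5 bp with raised input in some and 136.5 bp without raised input. This span was within 100 bp in 114 of the 163 members with raised input in every list. The same held in 12 of the 26 with raised input in some lists and in 13 of the 34 without raised input. With the nearest summits in place of the highest-fold ones, the counts were 128, 12 and 13. In 18 members no base was covered by 3 lists, since peaks can be chained through a neighbour. Members had a median width of 409 bp, with a range from 149 to 8205 bp, where the median of all merged regions was 149 bp. A member joins peaks of 3 or more lists, so it is wider by construction. The median was 147 bp for regions of 1 list, 324 bp for 2 lists and 409 bp for 3 lists. Of the members, 82 (36.8%) were 500 bp or wider, and the share of all merged regions of that width was not counted.

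The widest member and the one with the highest fold was chr21:9825441-9833645, of 8205 bp. It lies on the short arm of chromosome 21, an arm that carries ribosomal DNA, and this interval of GRCh37 is known for sequence like the ribosomal repeat. Its fold was 17 (14.2 to 20.3) in HepG2/HOXA13, 38 (33.4 to 43.1) in HepG2/HA and 12.9 (9.70 to 16.9) in Huh7/HA. No peak of Huh7/HOXA13 lay there. Input at these summits was 3.65, 2.06 and 1.19 times the background, so by input the region was raised in 1 of 3 lists. The HepG2/HA summit stood on 242 ChIP reads of a ceiling of 270. It was the only member with a fold of 5 or more in every list that held it other than chr5:71146737-71146924. Its neighbour chr21:9834599-9835329 had 3.84, 2.66 and 3.06.

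The 34 members without raised input had input of at most 2.88 times the background in any list. Whether they are single-copy was not tested on sequence. Their median folds were 3.11 in HepG2/HOXA13 (n = 26 members), 3.04 in HepG2/HA (n = 29), 2.98 in Huh7/HOXA13 (n = 21) and 2.71 in Huh7/HA (n = 26). In 14 of the 34 (41.2%) 1 list or more reached 5-fold, where 2.63% of all merged regions without raised input did, but a region of 3 lists has more chances than a region of 1. Such a fold was reached by 9 of the 29 members in HepG2/HA (10.9% of that list's peaks), 6 of 21 in Huh7/HOXA13 (1.98%), 1 of 26 in HepG2/HOXA13 (0.124%) and 0 of 26 in Huh7/HA (0.0764%). A strong peak was present in no list in 18 of these members, in 1 list in 15 and in 2 lists in 1. In 3 of the 34, q was 0.05 or less in every list that held the member, while 81 of the 163 members with raised input in every list met this. That q was reached by 10.3% of HepG2/HOXA13 peaks, 51.2% of HepG2/HA, 9.31% of Huh7/HOXA13 and 6.68% of Huh7/HA peaks.

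The member with the firmest values of that group was chr5:71146737-71146924, of 188 bp. Its fold was 13.6 (9.62 to 18.6) in HepG2/HOXA13 on 36 ChIP reads, 5.30 (3.63 to 7.49) in HepG2/HA on 30 reads and 5.14 (3.35 to 7.58) in Huh7/HOXA13 on 23 reads. The −log10 q was 30.2, 11.1 and 4.66. Input was 1.00, 1.85 and 1.09 times the background, the summits lay within 39 bp, and the nearest long stretch was 21741077 bp away. Huh7/HA had no peak there. The HepG2/HOXA13 interval lay above the other 2, which overlapped each other. It was the only member without raised input that was strong in 2 lists.

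The other 2 members of that group with q of 0.05 or less in every list were weaker in at least 1 of them. At chr12:15769426-15770084 the folds were 3.21 (1.85 to 5.24) in HepG2/HOXA13, 8.91 (6.46 to 12) in HepG2/HA and 4.42 (2.96 to 6.39) in Huh7/HOXA13, with summits within 196 bp. At chrY:13810941-13811245 they were 4.84 (2.79 to 7.90) in HepG2/HOXA13, 2.68 (1.66 to 4.11) in HepG2/HA and 3.42 (2.18 to 5.14) in Huh7/HA. The chromosome 12 member was far from a stretch and the chromosome Y member lay 706229 bp from one.

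Several members were high in HepG2/HA and under 4-fold elsewhere. At chr3:80667455-80667923 HepG2/HA reached 30.7 (26.0 to 36) on 148 reads, while HepG2/HOXA13 stood at 3.31 (1.79 to 5.71) on 11 reads and Huh7/HA at 2.49 (1.23 to 4.64) on 8 reads. The 3 summits lay within 27 bp. At chr3:32136909-32137389 HepG2/HA reached 16.6, and Huh7/HOXA13 and Huh7/HA stood at 2.26 and 2.43, with no base covered by all 3 peaks. At chr5:101558420-101559151 the folds were 16.1 in HepG2/HA, 3.18 in HepG2/HOXA13 and 3.67 in Huh7/HA. At chr15:76825303-76826017 they were 9.71 in HepG2/HA, 2.15 in Huh7/HOXA13 and 3.00 in Huh7/HA, again with no base in 3 lists. In 7 of the 34 members the interval of 1 list lay above those of all others, and that list was HepG2/HA in 5.

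Other members had their highest fold in Huh7/HOXA13, but its interval lay above those of all others in only 1 of the 34. At chr6:33068858-33069265 it reached 7.94 (5.59 to 11.0), beside 4.14 (2.39 to 6.76) in HepG2/HOXA13 and 2.71 (1.38 to 4.89) in HepG2/HA. At chr19:58489598-58490945 it reached 8.90 (6.46 to 12), beside 2.93 (1.4 to 5.66) in HepG2/HOXA13 and 2.12 (1.15 to 3.66) in Huh7/HA, with summits up to 630 bp apart. At chr16:71482156-71483397 it reached 5.36 (3.75 to 7.46), beside 3.15 (1.61 to 5.69) and 2.91 (1.57 to 5.02) in HepG2/HOXA13 and HepG2/HA. At the chromosome 6 and chromosome 16 members its interval overlapped that of HepG2/HOXA13. None of these 3 regions had a base covered by 3 lists, although pairs of lists overlapped in each.

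Of the remaining members named by the ranking, 3 were lower and more even and 1 was led by HepG2/HA. The folds at chr4:49221394-49221802 were 3.67, 3.20 and 2.98 in the HepG2 lists and Huh7/HOXA13, on 11 to 12 reads each. They were 2.93, 3.50 and 3.38 at chr3:190389550-190389839 in the HepG2 lists and Huh7/HA. At chrX:143285932-143286197 HepG2/HA stood at 2.93, Huh7/HOXA13 at 4.03 and Huh7/HA at 2.81. At chr1:161397793-161398045 HepG2/HA stood at 6.55 (4.96 to 8.49), Huh7/HOXA13 at 2.77 (1.67 to 4.37) and Huh7/HA at 3.35 (2 to 5.32), with summits within 13 bp. At the depth of these lists the folds of the first 3 of these regions were not separated by their intervals.

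**Figure D2:**
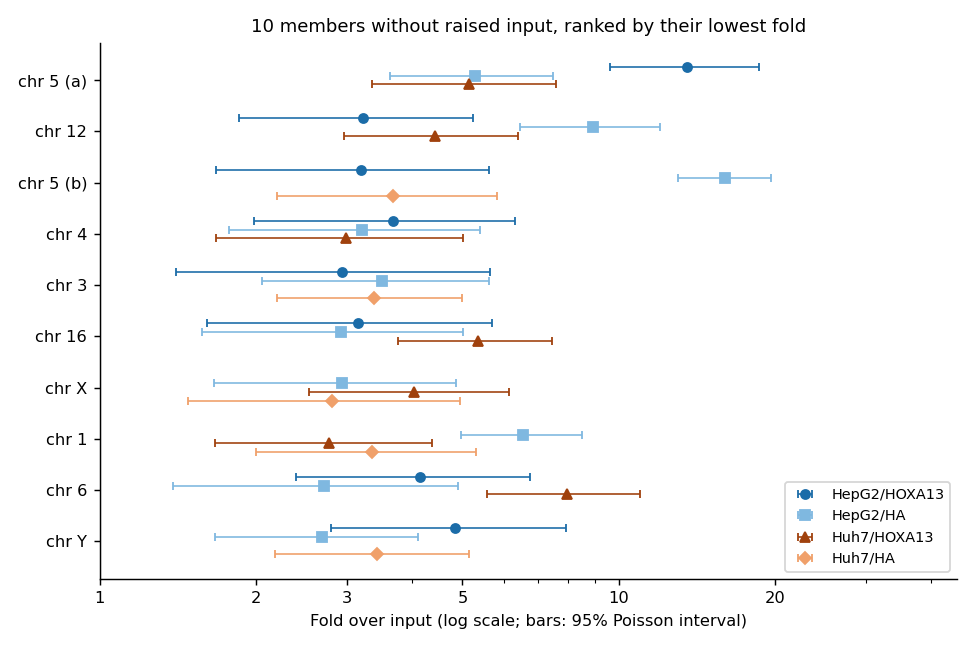
Fold over input (x axis, log scale) with 95% Poisson intervals of the ChIP pileup for the 10 members without raised input that have the highest lowest fold (y axis, in rank order from the top), 1 symbol per list that holds the member. The top member, on chromosome 5, has every fold above 5, and in most of the others the intervals of the lists overlap.

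Members with raised input in only some lists lay between the groups. Of these 26, input was raised in HepG2 lists only in 18, in Huh7 lists only in 3 and in both lines in 5. The lines had unequal chances, since all 26 were held by HepG2/HA and 16 of them by HepG2/HOXA13 too. Huh7/HOXA13 held 16 and Huh7/HA 20. Of all peaks, input was raised in 17.3% in HepG2/HA, 1.82% in HepG2/HOXA13, 8.83% in Huh7/HOXA13 and 8.13% in Huh7/HA. At chr2:102182962-102183845 input was 3.95 and 3.64 times the background in HepG2/HOXA13 and HepG2/HA and 2.27 in Huh7/HA, with folds of 2.43 (1.49 to 3.77), 18.8 (16.3 to 21.6) and 3.61 (2.36 to 5.30). At chr2:84527175-84527841 input was 4.26, 3.91 and 2.10, with folds of 2.52, 12.2 and 3.55. Both are thus raised in HepG2 only, by a small margin, and HepG2/HA led at each. The block chr19:37763270-37792008 held 4 members, 2 with raised input in some lists and 2 in none, with a median fold of 4.15 in HepG2/HOXA13, 2.53 in HepG2/HA and 2.72 in Huh7/HOXA13.

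At the edge of the rule, some members had little in common between lists and some regions missed by a few bases. Inside it, chr12:94147-94598 and chr13:34116590-34117118 had no base in 3 lists, with folds of 1.52, 3.04 and 3.37 in HepG2/HA, Huh7/HOXA13 and Huh7/HA at the first. The second had 3.11, 2.29 and 1.66 in HepG2/HOXA13, HepG2/HA and Huh7/HA. Just outside, chr14:27030278-27030532 was held by both Huh7 lists, at 2.80 and 3.01, and a HepG2/HOXA13 peak adjoined it with 0 bp between them. The region chr20:50283462-50284149 had 29.9 in HepG2/HA and 3.75 in Huh7/HA, with a HepG2/HOXA13 peak 1 bp away. The region chr21:11136076-11136283 had 2.24 and 1.87 in the HepG2 lists, with a Huh7/HOXA13 peak 4 bp away.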

How the data were processed

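ChIP-seq peak lists of 4 conditions, each with 1 ChIP library called against the input of the same cells, were used as deposited. The submitters' processing notes name BWA, MACS2 and GRCh38. Version numbers and caller settings are not stated in those sources. The deposited lists use sequence names of GRCh37 (a decoy and GL000 contigs), so positions are given as GRCh37, 1-based, and none was converted. Per peak, the authors deposited a score, a fold (ratio of ChIP to expected pileup), the −log10 p and −log10 q, and a further whole number (other), which gives how far the summit lies inside the peak; all are the authors' values. The lowest −log10 p was 2.00 in each list, so peaks with q near 1 are included.

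From the deposited fold and p, ChIP pileup and expected pileup were solved with MACS2's published formulas (1 added to each pileup), for at least 99.96% of peaks, after tests on simulated data. What is called input at a summit is this expected pileup, which a window wider than 1 fragment around the summit can also set. The background expected pileup was 1.73 in HepG2/HOXA13, 2.62 in HepG2/HA, 2.60 in Huh7/HOXA13 and 2.61 in Huh7/HA, which sets the depth behind each fold. The peak of highest fold stands for a list in a member. Intervals are exact (Clopper-Pearson) for shares and Poisson, on the ChIP reads, for folds, at 95%, and cover counting error only; reads carry no molecular identifiers. No test was made, since no condition has a replicate among these samples.

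The members, thresholds and lists were chosen with earlier results of these data known. Named regions are those in all 4 lists, the 10 with the highest fold, the 10 without raised input with the highest lowest fold, the 5 widest, the 5 largest blocks and 3 on each side of the rule's edge. Other blocks and regions were added after their values were seen. Overlap, list length, q, the level of raised input, the distance and single lists were varied as alternatives. Repeats, copies and HOX13 sites had been planned and were not run, since no GRCh37 genome was used here. The tools were scipy 1.17.1, pandas 2.3.3, numpy 2.4.6 and matplotlib 3.10.9 under Python 3.11.15.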

Additional observations from a re-analysis of the deposited data

Results flagged for a closer look

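Outside chromosomes 1 to 22, X and Y, which the comparisons did not use, regions held by 3 or 4 lists were also present. The decoy sequence, which collects reads of human sequence missing from the GRCh37 chromosomes, had 914 of its 10735 merged regions (8.51%, exact 95% interval 7.99 to 9.06%) in 3 or 4 lists, 31 of them in all 4, where 0.158% of the regions on chromosomes were. Input was raised in every list that held them in 818 of the 914 (89.5%), with median input of 23.7 times the background in HepG2/HOXA13, 22.4 in HepG2/HA, 6.92 in Huh7/HOXA13 and 33.6 in Huh7/HA. The unplaced contigs had 75 of 1517 (4.94%, 3.91 to 6.16%), 2 of them in all 4 lists, with raised input in every list in 71.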

How the results depend on the processing

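Values are given beside the 223 regions, 73.1% with raised input in every list, 34 members without raised input, 63.7% near a stretch, 69.5% with another member within 1 Mb, 107 members strong in at least 2 lists and a summit span of 48 bp. With each list held to its 10414 best peaks, the values were 130 regions, 90.8%, 5 members, 79.2%, 83.8% and a span of 29.5 bp. With peaks of q 0.05 or less only, they were 89 regions, 94.4%, 3 members, 88.8%, 88.8% and 27 bp. All 130 and all 89 regions overlapped members of the full set. This was fixed in advance, since both settings merged a subset of the same peaks. With peaks of raised input left out before merging, 34 regions were left, all of which overlapped members for the same reason.

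Raised input set at over 2 times the background gave 78.9% of members raised in every list and 16 in none, and over 5 times gave 62.3% and 53. Strong set at −log10 q of 10 or more gave 65 members, and at q of 0.05 or less gave 170. Leaving out 1 list in turn, and asking for the 3 others, gave 9 regions (without HepG2/HA) to 155 (without Huh7/HOXA13), since each combination has its own members. Over the same 4 settings the share with raised input in every list ran from 40% (without HepG2/HOXA13) to 85.2%, the number without raised input from 5 to 13, and the share near a stretch from 13.3% to 78.7%. The share with another member within 1 Mb ran from 0% to 78.7%, the number strong in at least 2 lists from 0 to 94, and the span from 38 to 143.5 bp. Each of these shares of raised input and of members near a stretch was above the 5.81% and 3.15% of all merged regions. Of 66 alternatives 44 moved a value and 22 stayed within the tolerance, which was 1.5 times for a count and the 95% interval for a share or the span. Within it were 1 base covered by 3 lists (205 regions), an overlap of 50 bp (216), the 155 regions without Huh7/HOXA13 and the strongest peak taken by −log10 p, which was chosen after the data were seen. Also within it were 97 strong members at equal list length and 76 at q of 0.05, which are larger shares of their 130 and 89 regions than 107 is of 223. No paired analysis was possible because each condition has 1 library.

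Depth limits the members without raised input most: their median ChIP pileup was 9.5 reads in HepG2/HOXA13 and 13.5 in Huh7/HA, so a fold near 3 has an interval that can reach from under 2 to over 5.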
